A study of Mus musculus with 2 samples.

Results

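Chemokines are small secreted proteins that direct the movement of leukocytes and other cells, and 10 of their genes were examined in RNA of enzymatically digested uterine stroma from mice on day 5 of pregnancy. The genes were taken by name, with earlier results of these data known: the neutrophil chemokines Cxcl1 and Cxcl2, the monocyte and lymphocyte chemokines Ccl2, Ccl7, Ccl3, Ccl4, Ccl5 and Cxcl10, and the homeostatic chemokines Cxcl12 and Cxcl14. All probe sets annotated to exactly 1 of these symbols were taken, which gave 12 of the 20380 probe sets with 1 symbol on the array, and 10 of 12393 genes. Cxcl12 and Cxcl14 had 2 probe sets each and the other members 1 each. The tested array held RNA pooled from 3 mice carrying a floxed allele and PRcre, a Cre recombinase driven from the progesterone receptor locus. The other held RNA pooled from 3 floxed control mice. A Cre of this kind acts in the cells that express the progesterone receptor, which in the uterus include more than stroma. The labels disagree on the deleted gene: the titles give Hif1, the genotype field gives Hif2 alpha (the product of Epas1), and the breeding note ends with Rac1. The first array is therefore called knockout-labelled. With 1 array per group there were no replicates, so no difference had a test or a p-value, and each value describes 2 pools of RNA and not the genotypes.

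Chemokines are named for the spacing of their first cysteines, adjacent in the CC family and separated by 1 residue in the CXC family, and they act through receptors coupled to G proteins. CC chemokines mostly draw monocytes, macrophages, NK cells and T cells. CXC chemokines include ligands of Cxcr2 that draw neutrophils, ligands of Cxcr3 that draw activated T cells and NK cells, and constitutive factors such as Cxcl12. Many inflammatory chemokine genes are switched on within minutes to hours by NF-kB, downstream of interleukin 1 and tumour necrosis factor, and Cxcl10 also by interferons. In the mouse uterus around implantation, macrophages and NK cells gather in the stroma, and decidual stromal cells are known for silencing several genes of T cell attracting chemokines.

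The promoter windows of 5 members are shown so that the 3 patterns of values given later (little different, lower and higher) can be set beside the DNA. Each window runs from 250 bases before to 50 bases after the annotated gene start, 5′ to 3′ on the gene's strand, and comes from RefSeq on build GRCm38.p6. Windows were matched for 6 of the 10 members (Cxcl1, Cxcl2, Ccl3, Cxcl10, Cxcl12 and Cxcl14). Capitals mark matches, on either strand, to the NF-kB binding consensus (the kappaB consensus) or to the core of the interferon-stimulated response element, taken as 2 copies of GAAA with any 2 bases between them. Overlapping matches are joined in 1 stretch of capitals.
Cxcl1 (chr5:90890995-90891294, plus strand): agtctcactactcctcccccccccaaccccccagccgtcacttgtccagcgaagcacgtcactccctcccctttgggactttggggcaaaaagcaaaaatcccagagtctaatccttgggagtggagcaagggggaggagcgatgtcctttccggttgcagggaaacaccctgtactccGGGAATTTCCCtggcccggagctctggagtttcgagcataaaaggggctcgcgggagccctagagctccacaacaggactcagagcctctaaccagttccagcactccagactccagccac
Cxcl2 (chr5:90903649-90903948, plus strand): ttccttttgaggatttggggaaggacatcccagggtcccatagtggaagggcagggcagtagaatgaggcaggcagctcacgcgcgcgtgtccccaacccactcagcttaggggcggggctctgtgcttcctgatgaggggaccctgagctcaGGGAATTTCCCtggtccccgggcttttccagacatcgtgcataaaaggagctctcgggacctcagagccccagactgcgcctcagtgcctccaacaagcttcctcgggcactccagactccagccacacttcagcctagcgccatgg
Cxcl10 (chr5:92348840-92349139, minus strand): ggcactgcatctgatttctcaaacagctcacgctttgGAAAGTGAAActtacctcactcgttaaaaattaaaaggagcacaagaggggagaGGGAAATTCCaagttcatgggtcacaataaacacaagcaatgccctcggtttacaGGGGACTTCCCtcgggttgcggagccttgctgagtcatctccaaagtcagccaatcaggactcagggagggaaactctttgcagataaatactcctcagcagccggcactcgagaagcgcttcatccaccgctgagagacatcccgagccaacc
Ccl3 (chr11:83649329-83649628, minus strand): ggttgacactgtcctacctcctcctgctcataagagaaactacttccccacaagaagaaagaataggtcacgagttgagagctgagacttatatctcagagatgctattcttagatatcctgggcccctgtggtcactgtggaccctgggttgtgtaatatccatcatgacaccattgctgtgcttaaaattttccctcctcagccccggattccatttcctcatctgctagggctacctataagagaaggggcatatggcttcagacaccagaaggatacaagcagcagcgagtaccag
Cxcl14 (chr13:56296502-56296801, minus strand): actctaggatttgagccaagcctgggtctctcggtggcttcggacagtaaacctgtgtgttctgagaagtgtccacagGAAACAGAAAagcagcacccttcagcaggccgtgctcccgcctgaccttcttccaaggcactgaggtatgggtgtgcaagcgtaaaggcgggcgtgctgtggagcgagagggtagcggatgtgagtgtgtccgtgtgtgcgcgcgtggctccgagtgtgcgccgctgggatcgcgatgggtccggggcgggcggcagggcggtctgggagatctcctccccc

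Cxcl1 and Cxcl2 are next to each other in the order of protein-coding genes, and their windows shared stretches of sequence. A global alignment paired 61.3% of the 300 bases as identical. Separate alignments gave 66.0% over the 150 bases nearest the downstream end and 48.7% over the 150 bases upstream of those. The identity of unrelated windows was not measured. Both windows held GGGAATTTCC, starting 71 bases upstream of the start in Cxcl1 and 97 bases upstream in Cxcl2, within a shared run of 14 bases (GGGAATTTCCCTGG). Those 10 letters, taken from the match that both windows share, were present on either strand in 0.0883% of 32851 windows in the table, and the wider kappaB consensus in 8.46%. Cxcl10 held the kappaB consensus starting at 159, 104 and 103 bases upstream, the last pair overlapping, and a match to the interferon core (in 3.44% of windows) starting 213 bases upstream. It also held an AP-1 motif, TGANTCA, 74 bases upstream, which 7.81% of windows held. The windows of Ccl3 and Cxcl12 held none of these motifs, and that of Cxcl14 held the interferon core, starting 172 bases upstream. TATAAA was in none of the 6 windows of members and in 13.6% of all windows. The HIF core ACGTG was found in Cxcl1 (19.6% of all windows) and GCGTG in Cxcl2, Cxcl10 and Cxcl14 (32.4% of all windows). These are matches of letters within 300 bases and were not tested as binding sites.

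The deposited values are MAS5 signals, a linear brightness for each probe set, with a 2% trimmed mean of 150.1 on either array. Signals were raised to a floor of 19.7, the 40th percentile of both arrays pooled, before the log2 ratio (knockout-labelled minus control) was taken. The floor was passed by 59.1% of probe sets on the knockout-labelled array and 60.9% on the control array. The error of 1 log2 ratio, estimated from the disagreement of 2 probe sets of the same gene over 2660 genes, was an SD of 0.64. It takes in neither the animals' own spread nor that of repeated labelling or hybridisation. Stromal genes such as Dcn, a matrix proteoglycan (signals 7261 knockout-labelled and 4641 control), and Col3a1 (10987 knockout-labelled and 7439 control), named to check the tissue, were bright on both arrays. Hoxa10 was also well above the floor (1104 knockout-labelled and 1611 control). Other stromal markers were near or at the floor: Hand2 (22.1 knockout-labelled and 21.2 control), Esr1 (19.8 knockout-labelled and 18.4 control) and Pgr, the progesterone receptor gene (29.7 knockout-labelled and 52.6 control). The arrays also differed in their control probe sets: the 3' to 5' signal ratio of b-actin was 16.0 on the knockout-labelled array and 2.27 on the control array, and that of Gapdh was 7.25 on the knockout-labelled array and 1.49 on the control array. Where the chemokine probes lie along their transcripts was not analysed here, so the part of this imbalance in any ratio was not tested. Of the genes the labels name, Epas1 had signals of 78.1 knockout-labelled and 59.4 control, Hif1a 1544 knockout-labelled and 721 control, and Rac1 757 knockout-labelled and 1038 control, so none was at the floor at its brightest probe set. The next probe sets of Hif1a had 297 knockout-labelled and 114 control, and 38.7 knockout-labelled and 27.0 control. The next probe set of Rac1 had 332 knockout-labelled and 664 control, and 1 further probe set each of Hif1a and Rac1 was at the floor on both arrays.

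All 5 CC chemokines were 2-fold or more below control, whereas none of the 5 CXC chemokines passed 2-fold in either direction. A gene is called lower or higher here by that size rule alone, with no test. After quantile normalization, median centring or removal of the trend with signal, 3 of the 5 CC genes (Ccl2, Ccl3 and Ccl7) were called lower. Cxcl14 was called higher after median centring, as were 13.3% of all genes. Of the 8593 genes that exceeded the floor on 1 array or both, 13.0% were called lower and 6.21% called higher as deposited. The 10 members had a median log2 ratio of -0.86, against -0.10 over all genes. The log2 ratios of the CC members lay between -2.62 and -1.12 and those of the CXC members between -0.60 and 0.81. The families thus did not overlap as deposited. Their gap of 0.52, between Ccl5 and Cxcl10, is smaller than 0.91, the SD of the difference between 2 probe sets of 1 gene. The gap between the highest CC and the lowest CXC member depended on the scaling and the floor, and so did the genes that bounded it. Between Ccl4 and Cxcl12 it was 0.13 after quantile normalization and 0.04 with the trend removed. With the floor at the 60th percentile it was 0.17, between Ccl4 and Cxcl10. All 12 probe sets were above the floor on both arrays, so every ratio here was measured on both sides.

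**Figure D1:**
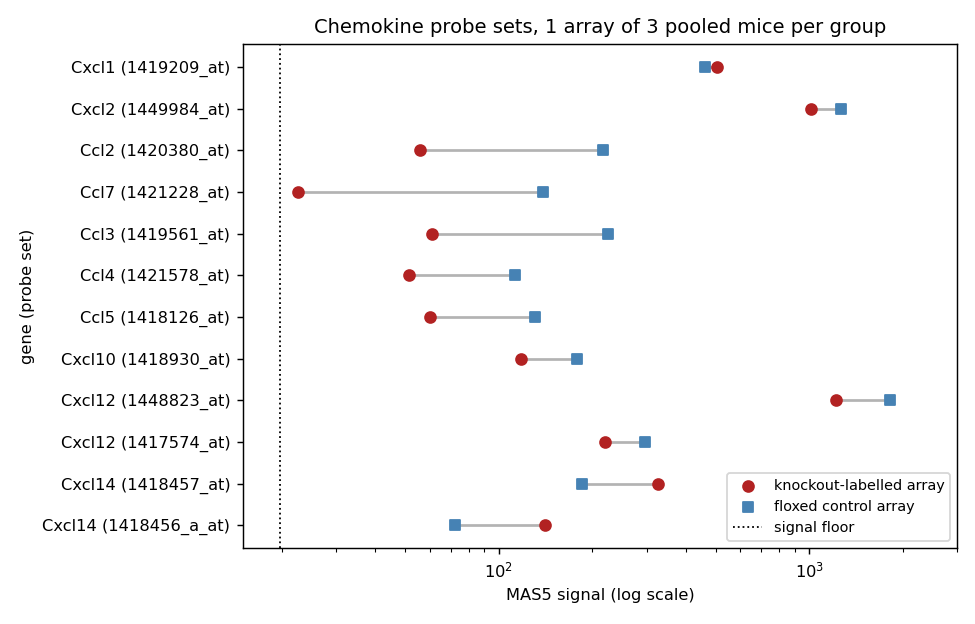
MAS5 signal (horizontal, log scale) of each of the 12 chemokine probe sets on the knockout-labelled array (red circles) and the floxed control array (blue squares), with the floor of 19.7 dotted. Ccl7 shows the widest separation, 22.6 knockout-labelled and 139 control, the 2 points of Cxcl1 nearly coincide, and both probe sets of Cxcl14 lie higher on the knockout-labelled array.

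Ccl2 and Ccl7 are ligands of the receptor Ccr2 and draw monocytes out of blood into tissue. Ccl7 had a signal of 22.6 on the knockout-labelled array, close to the floor, against 139 on the control array. This was 6.14-fold lower (log2 ratio -2.62), and 0.175% of all genes compared had a ratio as low or lower. Ccl2 had a signal of 55.6 on the knockout-labelled array and 217 on the control array, 3.90-fold lower (log2 ratio -1.96). A ratio as low or lower than that of Ccl2 was found for 1.32% of genes. Ccl2 and Ccl7 are adjacent protein-coding genes, and each rests on 1 probe set.

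Ccl3, Ccl4 and Ccl5 are inflammatory chemokines made by macrophages, NK cells and T cells, and Ccl3 and Ccl5 bind the receptor Ccr1. Ccl3 had a signal of 60.8 on the knockout-labelled array and 225 on the control array, 3.70-fold lower (log2 ratio -1.89, a value that 1.63% of genes reached or went below). Its neighbour Ccl4 had signals of 51.6 knockout-labelled and 113 control, 2.19-fold lower (log2 ratio -1.13). Ccl5 had signals of 60.2 knockout-labelled and 131 control, 2.18-fold lower (log2 ratio -1.12). Ccl4 and Ccl5 passed the 2-fold rule by less than the probe set error, and 9.94% and 10.2% of genes had ratios as low or lower. The next member up was Cxcl10, the interferon-induced ligand of Cxcr3, with signals of 118 knockout-labelled and 179 control (log2 ratio -0.60), which stayed within 2-fold and within 1 SD of 0.

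The 5 CC members had 1 probe set each and had mean signals between 43.4 and 169, groups 2 and 3 of 5 equal groups of genes ordered by signal. Of the 1923 genes with 1 probe set in these groups, 21.2% were called lower and 3.33% called higher. In the brightest group of the 5, which held Cxcl1, Cxcl2 and Cxcl12, 6.69% of genes were called lower. The count of lower CC members is to be read against these shares as well as against the 13.0% of all genes. With the trend of ratio on signal removed, Ccl7, Ccl2 and Ccl3 were still called lower (log2 ratios -2.32, -1.77 and -1.71), while Ccl4 and Ccl5 came to -0.88 and -0.90.

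**Figure D2:**
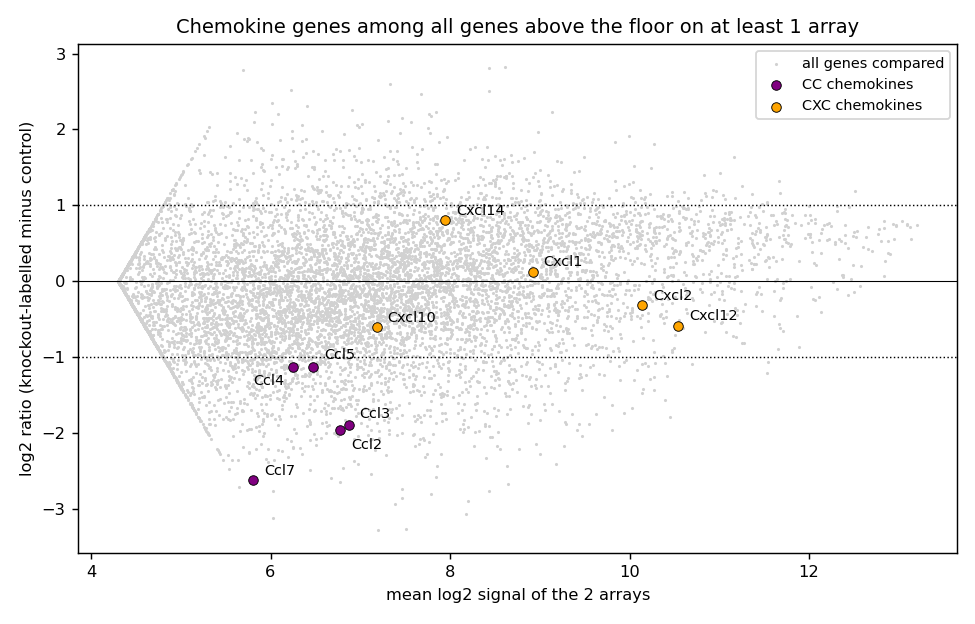
Log2 ratio (vertical, knockout-labelled minus control) against the mean log2 signal of both arrays (horizontal) for the 8593 genes compared (grey), with CC chemokines in purple and CXC chemokines in orange; dotted lines mark 2-fold. The 5 CC members lie below the lower line among genes of low to middle signal, and the 5 CXC members lie between the lines.

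The neutrophil chemokines differed little between the arrays. Cxcl1, a ligand of Cxcr2 also known as KC, had a signal of 506 on the knockout-labelled array and 463 on the control array (log2 ratio 0.13). Cxcl2, also known as MIP-2 and acting on the same receptor, had signals of 1013 knockout-labelled and 1262 control (log2 ratio -0.32). Both ratios lay within 1 SD of 0, in opposite directions. Markers of neutrophils themselves were near or at the floor: of 10 with a probe set, S100a9, Csf3r, Elane, Camp, Ngp and Mmp8 did not exceed the floor on either array. S100a8, a calcium-binding protein abundant in neutrophils, had signals of 47.6 knockout-labelled and 45.1 control, and the protease gene Mmp9 had 27.5 knockout-labelled and 46.9 control. The 4 neutrophil markers above the floor summed to signals of 124 knockout-labelled and 143 control.

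Of the homeostatic chemokines, Cxcl12 was somewhat lower and Cxcl14 somewhat higher on the knockout-labelled array, at both probe sets of each gene. Cxcl12, a stromal factor that acts through Cxcr4, had signals of 1218 knockout-labelled and 1823 control at its brighter probe set (log2 ratio -0.58). At the other probe set it had 220 knockout-labelled and 296 control (log2 ratio -0.43). Cxcl14, made by epithelial and stromal cells without inflammation and with a receptor that is not settled, had signals of 326 knockout-labelled and 186 control (log2 ratio 0.81). Its other probe set gave 141 knockout-labelled and 72.5 control (log2 ratio 0.95). No probe set of these genes reached 2-fold, and the ratios of Cxcl14 exceeded the SD of 0.64 while those of Cxcl12 did not. The 2 probe sets of each gene differed by less than the SD of such differences, 0.91. The genes nearest to Cxcl12 in log2 signal over the 2 arrays were Ndufa3, Serpinf1 and Col14a1 (Euclidean distances 0.014, 0.052 and 0.075), a likeness of 2 values per gene.

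The members kept their direction under all 8 other ways of scaling, flooring and choosing probe sets. Not all of these could move a value. For a member with 1 probe set above the main floor, the floor at the 25th percentile and both choices of probe sets returned the value as deposited. Across these, the log2 ratio of Cxcl14 ranged from 0.79 to 1.08 and that of Cxcl12 from -0.85 to -0.30, the values as deposited included. Ccl2 ranged from -1.96 to -1.68 and Ccl3 from -1.89 to -1.61, always beyond 2-fold. Ccl4 (-1.13 to -0.77) and Ccl5 (-1.12 to -0.84) crossed the 2-fold line.

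**Figure D3:**
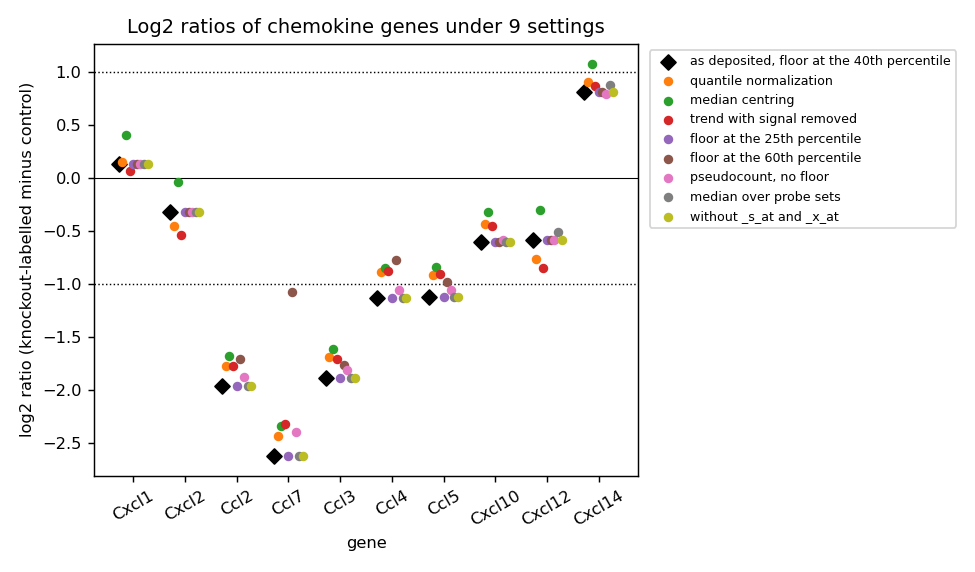
Log2 ratio (vertical, knockout-labelled minus control) of the 10 chemokine genes as deposited with the floor at the 40th percentile (black diamonds) and under 8 alternatives (coloured points); dotted lines mark 2-fold. Ccl2, Ccl3 and Ccl7 stay below the lower line in every setting, and with the floor at the 60th percentile the values of the 5 CC genes are bounds, because their knockout-labelled signals are at the floor there.

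Other chemokine ligands did not repeat the split between the families in their 2-fold calls, although the CC median was again the lower. Of 26 listed, 12 exceeded the floor on 1 array or both, with 3 called lower, none called higher and a median log2 ratio of -0.69, which was -0.41 after median centring, -0.43 after quantile normalization and -0.12 with the floor at the 25th percentile. All 6 further CC ligands compared had ratios below 0 at their brightest probe sets, with 1 of them called lower, and 2 of the 6 ligands of the other families were called lower. Their median log2 ratios were -0.76 for the CC ligands and -0.17 for the other families. Over all genes, 13.0% were called lower and 6.21% called higher. Ccl8 had signals of 771 knockout-labelled and 988 control (log2 ratio -0.36), and Ccl12, a mouse ligand of Ccr2, had 35.3 knockout-labelled and 56.8 control (-0.69). Ccl11, which draws eosinophils, had 31.1 knockout-labelled and 55.2 control (-0.83), and Ccl9 had 116 knockout-labelled and 187 control (-0.69). Ccl6 gave opposite results at its probe sets, with 182 knockout-labelled and 457 control at the brighter (-1.33) and 306 knockout-labelled and 206 control at the other (0.57), so its direction was not settled. Xcl1, a C chemokine released by NK and CD8 T cells, had 44.7 knockout-labelled and 136 control (-1.61). Cxcl9, an interferon-induced ligand of Cxcr3 like Cxcl10, was at the floor in the knockout-labelled pool and at 42.8 in the control pool, at least 2.16-fold lower. Pf4, a platelet and megakaryocyte chemokine, had 262 knockout-labelled and 217 control (0.27). Ccl1, Ccl17, Ccl20, Ccl22, Ccl24, Ccl25, Ccl28, Cxcl5, Cxcl11, Cxcl13 and Ppbp were at the floor on both arrays, which is no proof that they are silent.

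The receptors did not follow their ligands in 1 direction. Of 21 receptor genes with a probe set, 9 exceeded the floor on 1 array or both, with 1 called higher, 1 called lower and a median log2 ratio of 0.07. Over all genes, 6.21% were called higher and 13.0% called lower. Ccr2, the receptor of Ccl2 and Ccl7, had signals of 222 knockout-labelled and 101 control at its brightest probe set (log2 ratio 1.13) and 49.9 knockout-labelled and 27.2 control at the next (0.87), with the remaining one at the floor on both arrays. Its ratio was thus above 0 where those of its ligands Ccl2, Ccl7 and Ccl12 were below 0. Cxcr3, the receptor of Cxcl9 and Cxcl10, had 21.8 knockout-labelled and 44.7 control (-1.03). Cxcr4, the signalling receptor of Cxcl12, had 84.6 knockout-labelled and 102 control (-0.27), and Ackr3, which takes up Cxcl12 without G protein signalling, had 1226 knockout-labelled and 778 control (0.66). Ccr1, a receptor of Ccl3 and Ccl5, had a log2 ratio of 0.07. Ackr1, which binds many inflammatory chemokines on venules and red cells, had 63.4 knockout-labelled and 125 control (-0.98). Cxcr2, the neutrophil receptor of Cxcl1 and Cxcl2, was at the floor on both arrays.

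**Figure D4:**
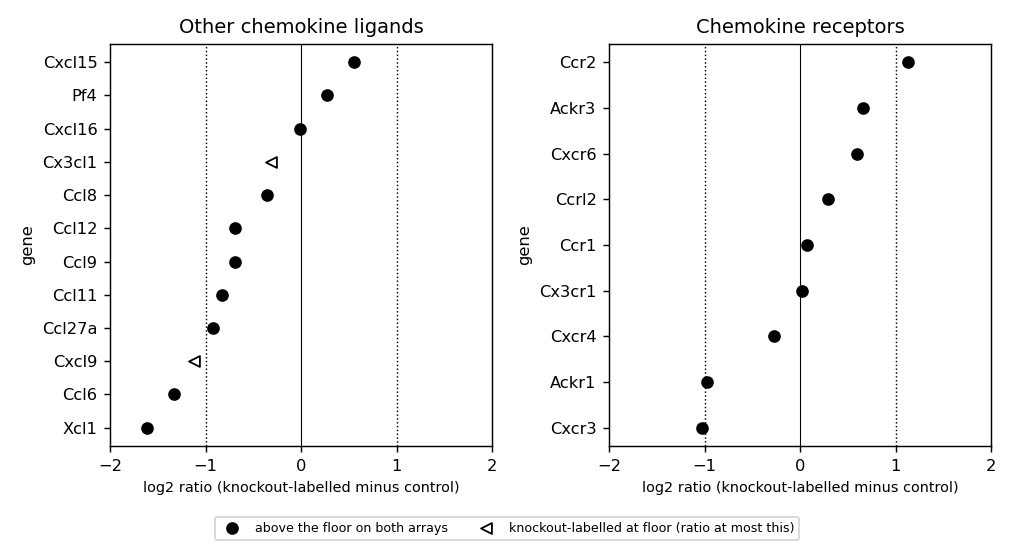
Log2 ratio (horizontal, knockout-labelled minus control) of the brightest probe set of each other chemokine ligand (left) and chemokine receptor (right) that exceeded the floor on 1 array or both; open triangles are bounds where the knockout-labelled signal is at the floor, and dotted lines mark 2-fold. Among ligands Xcl1 lies lowest at -1.61, and among receptors Ccr2 lies highest at 1.13.

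Genes of chemokine induction were mixed, and their list held genes that restrain it, such as Zfp36, as well as inducers. Of 23 genes of inducing cytokines and the NF-kB pathway above the floor, 1 was called higher and 3 were called lower, with a median log2 ratio of -0.42. These counts stand beside 6.21% called higher and 13.0% called lower over all genes. Il6, a cytokine gene that NF-kB also switches on, had signals of 160 knockout-labelled and 73.8 control (log2 ratio 1.11). Zfp36, which speeds decay of cytokine mRNAs with AU-rich elements, had 678 knockout-labelled and 1667 control (-1.30). The NF-kB subunit genes Rela (177 knockout-labelled and 366 control, -1.05) and Relb (25.1 knockout-labelled and 53.3 control, -1.08) were also lower. Il1b, chosen after its values were seen, had 112 knockout-labelled and 212 control (-0.93), and Tnf was at the floor on both arrays. Nfkbia, the brightest gene of the list and also chosen with its values in view, had 7861 knockout-labelled and 3968 control (0.99). Its other probe sets gave 0.28, -0.72 and 2.04. Of 9 genes of the interferon gamma pathway, Jak2 had 576 knockout-labelled and 188 control (1.62, with 0.24 at its other probe set) and Jak1 had 392 knockout-labelled and 987 control (-1.33, with -1.26 and -0.34 at the others), and the median was -0.54. Ifng was at the floor on both arrays.

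Tissue digestion itself turns on immediate-early genes and Cxcl1, Cxcl2 and Ccl2 in many cell types, so that class was set beside the members. Of 17 immediate-early and dissociation genes above the floor, 2 were called lower and none called higher, with a median log2 ratio of -0.02. Their summed signals were 35968 knockout-labelled and 29864 control. Over all genes, 13.0% were called lower and 6.21% called higher. The 2 immediate-early genes called lower were Junb, an AP-1 subunit (96.5 knockout-labelled and 228 control, -1.24), and Btg2 (774 knockout-labelled and 1640 control, -1.08). The part of digestion in the chemokine values was not tested.

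Macrophages, NK cells and endothelium also make chemokines, and several of their markers were lower on the same array as the CC members. The counts that follow stand beside 13.0% called lower and 6.21% called higher over all genes. Of 15 macrophage and monocyte markers, 6 were called lower and 2 called higher (median log2 ratio -0.62), and their summed signals were 4687 knockout-labelled and 5043 control. Fcer1g, an Fc receptor chain (60.8 knockout-labelled and 464 control, -2.93), the complement gene C1qa (68.5 knockout-labelled and 456 control, -2.73), Aif1 (at least 4.68-fold lower) and the lysosomal marker Cd68 (27.2 knockout-labelled and 105 control, -1.95) were lower. Ptprc, the leukocyte antigen CD45, chosen after its values were seen (545 knockout-labelled and 164 control, 1.74), was called higher. C1qb was the other gene called higher, but its direction was not settled, since its 3 probe sets gave 1.58, 0.54 and -2.68. In all, 7 of the 15 lay above 0 at their brightest probe sets, including Csf1r (1112 knockout-labelled and 817 control), Tyrobp (817 knockout-labelled and 684 control) and Mrc1 (222 knockout-labelled and 152 control). All 3 of these were picked with their values in view. The other probe sets of Csf1r gave log2 ratios of 0.13 and -0.88, so its direction was not settled either. Of 9 markers of lymphocytes and NK cells, 3 were called lower and 1 called higher (median -0.45, summed signals 1232 knockout-labelled and 1378 control). The T cell markers Cd3e, Cd8a and Cd4 did not exceed the floor, whereas Cd3g had signals of 32.9 knockout-labelled and 37.1 control. The granzyme gene Gzmc (46.2 knockout-labelled and 193 control, -2.06), Il2rb (31.1 knockout-labelled and 74.9 control, -1.27) and Nkg7 (80.4 knockout-labelled and 171 control, -1.09) were lower, and Klrd1, an NK receptor chain (270 knockout-labelled and 117 control, 1.21), was higher. Of 12 endothelial markers, 5 were called lower and none called higher (median -0.89, summed signals 2627 knockout-labelled and 4154 control), with Pecam1 at 27.5 knockout-labelled and 139 control (-2.34), Egfl7 at -1.79, Emcn at -1.58 and Esam at -1.23. Plvap (0.32) and Flt1 (0.07) were the 2 endothelial markers above 0 at their brightest probe sets.

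Of 10 markers of smooth muscle and pericytes, 4 were called lower and none called higher (median -0.90, summed signals 11808 knockout-labelled and 11691 control), with the muscle genes Myl9 (-1.88), Des (-1.67) and Cnn1 (-1.38) and the adhesion molecule gene Mcam (-1.66) as those called lower. The 3 above 0 at their brightest probe sets were Acta2 (6274 knockout-labelled and 4246 control, 0.56), Rgs5 (3157 knockout-labelled and 2123 control, 0.57) and Notch3 (0.17). Further probe sets of Rgs5 gave 0.62, -0.42 and -0.76. For comparison, 13.0% of all genes were called lower and 6.21% called higher. Of 11 epithelial markers, 3 were called lower and none called higher (median -0.51, summed signals 2071 knockout-labelled and 2662 control), namely the keratin gene Krt18 (-2.20) and the claudin genes Cldn3 (-1.74) and Cldn4 (-1.26). The 3 epithelial markers above 0 were Krt8 (0.64, with 0.60 and 0.56 at its other probe sets), Cdh1 (0.58) and Foxa2 (0.75). Of 15 stromal markers, Hoxa11, a homeobox factor of the uterus, was the 1 past 2-fold at its brightest probe set (108 knockout-labelled and 389 control, -1.85), with a median of 0.06 and summed signals of 46485 knockout-labelled and 33937 control. Further probe sets of Pdgfrb (43.3 knockout-labelled and 184 control, -2.09), Pdgfra (34.3 knockout-labelled and 111 control, -1.70) and Col1a1 (679 knockout-labelled and 1623 control, -1.26) were also more than 2-fold lower, where the brightest ones gave 0.46 for Pdgfrb and 0.59 for Col1a1 and, for Pdgfra, signals of 2212 knockout-labelled and 2215 control. In RNA of a bulk digest, fewer cells of a type and less RNA per cell cannot be told apart, and the part of cell composition in the chemokine ratios was not tested.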

How the data were processed

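RNA of uterine stromal digests, pooled from 3 mice per group, was hybridised to 2 Affymetrix Mouse Genome 430A 2.0 arrays, each with 1 colour. Per the submitters' processing notes, the deposited intensity values are MAS5 signals from Affymetrix Expression Console version 1. The scaling target and the detection calls are not given in the sources used here. Symbols came from the platform annotation, brought up to date through Entrez identifiers in a RefSeq table of GRCm38.p6. Of 22626 probe sets that are not controls, 20380 had 1 symbol and were used, 691 had several and 1555 had none. A gene with several probe sets is represented in counts and medians by its brightest one (highest log2 signal averaged over both arrays), and a probe set at the floor on 1 array gives a bound.

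Named genes are all chemokine members with all probe sets, a selection of the other ligands and receptors above the floor, and up to 4 members of each further list with the largest ratios past 2-fold (or its 2 brightest members if none passed). Some further genes were named with their values in view, among them markers that lay above 0. There were 8 functional lists, 3 of them the members, and 7 marker lists. The members and lists were chosen with earlier results of these data known. The numbers come from Python 3.11.15 with pandas 2.3.3 and statsmodels 0.14.6, and alignments from Biopython 1.88. The ratio and count steps were tested on simulated data whose noise was set below the probe set error of these arrays. That checked the steps and not the calls made here. Alternatives were quantile normalization, median centring, removal of the trend with signal (loess, span 0.4), floors at the 25th and 60th percentiles, a pseudocount of 4.70 without a floor, the median over probe sets, leaving out _s_at and _x_at probe sets, and 1.5-fold and 3-fold rules. The number of arrays limits the precision.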

Additional observations from a re-analysis of the deposited data

How the results depend on the processing

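As deposited, 5 chemokine genes were called lower by the 2-fold rule and none was called higher. The lower count was 3 (Ccl2, Ccl3 and Ccl7) after quantile normalization, median centring or removal of the trend with signal, with the floor at the 60th percentile, and under the 3-fold rule. In that order, 9.54%, 7.79%, 9.50%, 9.28% and 3.84% of all genes were called lower. Under the 1.5-fold rule the lower count was 6, with Cxcl10 added, beside 26.4% of all genes. The higher count was 1 (Cxcl14) after median centring and under the 1.5-fold rule, beside 13.3% and 18.5% of all genes. With the floor at the 60th percentile, a signal of 66.3, the log2 ratio of Ccl7 is -1.07 because that floor caps it. No member past 2-fold changed sign. Scaling moved all genes: 534 higher and 1119 lower calls as deposited became 1146 and 670 after median centring, 706 and 819 after quantile normalization and 674 and 816 with the trend removed, and the median log2 ratio of all genes moved from -0.10 to 0.16 with median centring. Relative to the median of all genes, the members' median was -0.76 as deposited and lay between -0.87 (trend removed) and -0.63 (floor at the 60th percentile). The median of the receptors stayed above 0 under all 8 alternatives, from 0.02 to 0.38. The median of the neutrophil markers turned from -0.16 to 0.12 after median centring, and those of the stromal markers (0.06 to -0.04 after quantile normalization) and the immediate-early genes (-0.02 as deposited, 0.26 after median centring, -0.22 after quantile normalization and -0.32 with the trend removed) also moved across or away from 0. No paired analysis was possible because each group has 1 array, and no replicate could be left out. Signal near the floor limits Ccl7, Cxcr3, Ccl11 and Ccl12, and 1 probe set carries each CC member.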
